A study of Mus musculus with 6 samples.

Results

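The nuclear genes of respiratory complex I were followed in the aging hippocampus, taken as every measured gene whose name is Nduf followed by a, b, c, s or v and a digit. This rule found 38 of the 16703 genes measured. It uses no measured value. It misses Ndufab1, the acyl carrier protein of the complex, and it includes Ndufa4 and Ndufa4l2, which are now placed in complex IV, the cytochrome c oxidase.

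Hippocampi of 3 aged (20-month-old) and 3 young (3-month-old) mice were sequenced, 1 library per mouse. All were male C57BL/6 animals, an inbred strain, with no treatment or engineered allele named for either age. The methods state that the replicates had been selected from an earlier qPCR assay, without naming the criterion, and that poly(A) RNA was enriched. Values are CPM, counts scaled to a common library total, and the counts had already been adjusted by removing 1 factor of unwanted variation.

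Complex I takes electrons from NADH and passes them to ubiquinone, and uses the energy to pump protons across the inner mitochondrial membrane. Its N module binds NADH, its Q module reduces ubiquinone, and its membrane arm moves the protons. The N and Q modules hold the nuclear core subunits, the membrane arm holds the core subunits encoded by mitochondrial DNA, and accessory subunits surround both. Neurons depend on oxidative phosphorylation.

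The adjusted totals ran from 15238190 to 17548247 counts per library, and sequencing depth cannot be read from them. Markers of hippocampal neurons, astrocytes, oligodendrocytes and endothelium were all measured, and none of these 23 genes passed the test between ages. Of them 5 had an unadjusted p under 0.05, where 8% of all genes were higher and 6.87% lower. Of 5 microglia markers 3 were higher in aged mice, and of 3 oligodendrocyte precursor markers 1 was lower. Of 5 choroid plexus markers 3 were lower, and their mean log2 CPM was 5.86, 3.97 and 4.41 in aged replicates 1 to 3, against 6.36, 6.05 and 6.41 in young replicates 1 to 3. The part of these differences in the complex I values was not tested. In bulk tissue, fewer cells of a type and less RNA per cell cannot be told apart.

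None of the 38 genes passed the age comparison, in either direction (limma, Benjamini-Hochberg adjusted p under 0.05 over all genes). Across all genes 1.2% were called higher and 0.784% lower in aged mice. At an unadjusted p under 0.05, 0 of the 38 genes were higher and 2 were lower (Ndufs1 and Ndufb1), where 8% and 6.87% of all genes were. The median log2 fold change, aged over young, was 0.02 for the 38 genes and 0.0049 for all genes. In total 24 of the 38 estimates were positive and 14 negative, between -0.22 for Ndufb1 and 0.34 for Ndufa4l2.

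The intervals say how large a difference these libraries still allow. The 95% interval of the age difference lay within 1.5-fold in either direction for 37 of the 38 genes, the exception being Ndufa4l2. This held for 97.3% of the 9696 genes between the lowest and highest of the other 37 genes in mean log2 CPM, a range that leaves out Ndufa4l2 and is not a match of levels gene by gene. Within 1.2-fold, a bound chosen after the values were seen, lay the intervals of 31 of the 38 genes (81.6%) and of 56.2% of the genes in that range. Without aged replicate 3 this count was 11 of 38, and 28 when the term for the removed factor was dropped as well. The median spread within an age group was 0.050 log2 units for the 38 genes and 0.073 for the genes in that range. Nuclear subunits of complexes II to V had a median spread of 0.044 log2 units and 35 of 39 intervals (89.7%) within 1.2-fold. Since a factor estimated from the same 6 libraries had been removed, the intervals are somewhat too narrow.

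**Figure D1:**
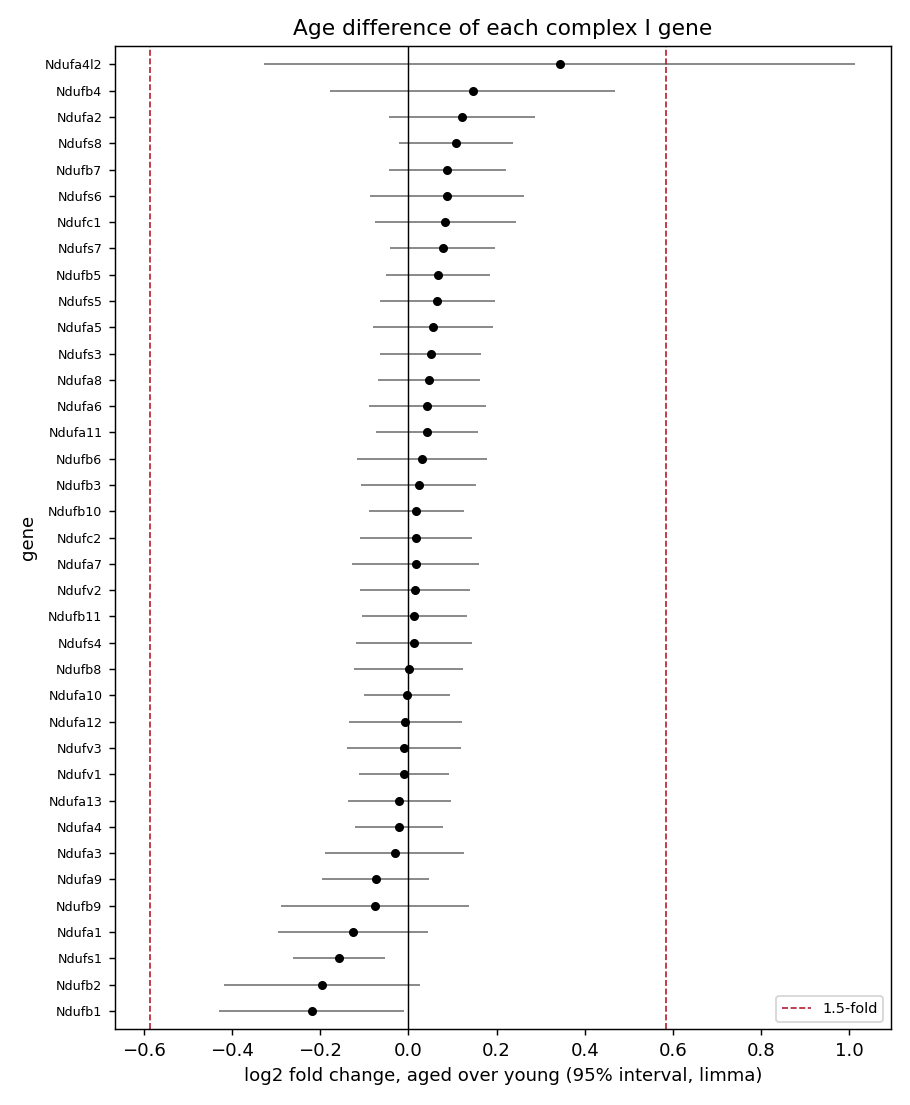
Log2 fold change, aged over young, of 37 genes (points) with its 95% interval from limma (lines), ordered by estimate. The dashed lines mark 1.5-fold in either direction, and only the interval of Ndufa4l2 crosses one.

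In the N module core, which receives electrons from NADH, 1 of 3 genes had all aged values below all young values, as did 12.7% of all genes. Ndufs1, the large subunit that carries several of the iron-sulfur clusters, had 124, 132 and 127 CPM in aged mice, against 146, 139 and 144 CPM in young mice. Each aged mouse was below each young mouse, with means of 127.9 ± 4.20 and 142.6 ± 3.55 CPM (SD, n = 3 each). The log2 fold change was -0.16 (SE 0.05), which did not pass (limma, unadjusted p = 0.0054, adjusted p = 0.127). Its interval ran from 0.835-fold to 0.963-fold. Over the alternatives the estimate stayed negative, from -0.20 to -0.13, with adjusted p between 0.0548 and 0.561. Of its annotated exon bases 6.16% overlap other genes on the opposite strand, Eef1b2 and Ino80dos. The methods name a directional kit for the RNA-seq libraries, but no source used here states the strand setting of the counting.

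The partners of Ndufs1 in that module showed no such separation. Ndufv1, which binds the flavin and NADH, had 154, 152 and 150 CPM in aged mice, against 152, 147 and 160 CPM in young mice. The log2 fold change was -0.01 (SE 0.05, adjusted p = 0.952), and the groups overlapped. Ndufv2, a further iron-sulfur subunit, had 109, 95.1 and 100.3 CPM in aged mice, against 97.1, 101.2 and 103 CPM in young mice. Its aged values spread around the young ones, with a log2 fold change of 0.02 (SE 0.06, adjusted p = 0.936). Whether Ndufs1 differed from these partners in its response to age was not tested.

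The Q module core, which hands the electrons to ubiquinone, had no gene past the test. Ndufs8, which holds a pair of iron-sulfur clusters, had 61.1, 65.2 and 63.3 CPM in aged mice, against 57.6, 56.7 and 61.7 CPM in young mice. Only aged replicate 1 was inside the young range, and the log2 fold change of 0.11 (SE 0.06) did not pass (adjusted p = 0.444).

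Ndufs7, which carries the last iron-sulfur cluster before ubiquinone, had 74, 78.3 and 75.7 CPM in aged mice, against 74.5, 69.5 and 71.9 CPM in young mice. The log2 fold change was 0.08 (SE 0.06, adjusted p = 0.568), with 1 aged value below the highest young value. Ndufs3, a structural core subunit between the modules, had 93.1, 95.2 and 94.1 CPM in aged mice, against 95.5, 90.2 and 87.1 CPM in young mice, and the groups overlapped (log2 fold change 0.05, SE 0.05, adjusted p = 0.722). Of the 50-base words of its transcripts 17.9% also occur in another annotated gene, most in Gm12251. The extended methods state that only uniquely mapped reads were kept, so reads confined to such words could be missing from its count.

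**Figure D2:**
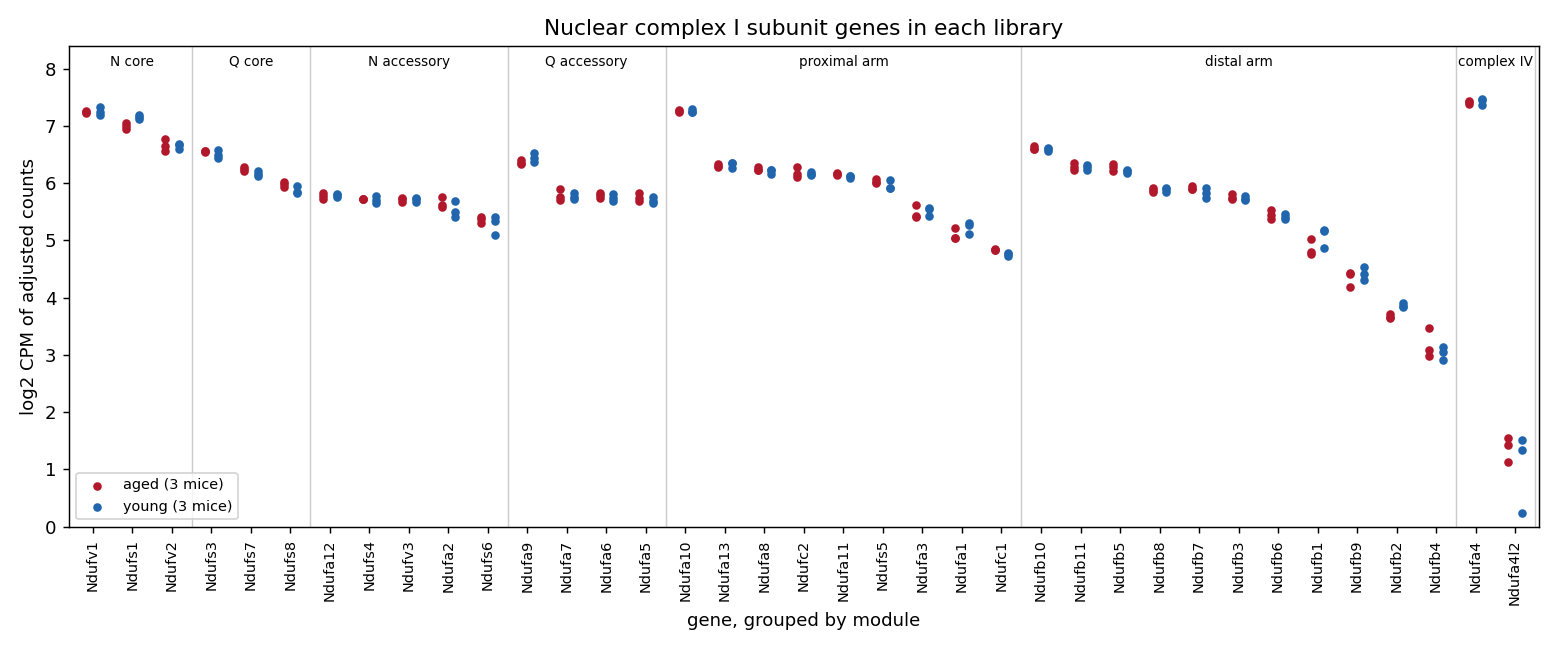
Log2 CPM of 37 genes in each library (y axis), by module, with aged mice (red) left of young mice (blue). The points of a gene lie close together in nearly all cases, and Ndufb4 and Ndufa4l2 show the visible scatter at low level.

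Among the 5 accessory genes of the N module, 3 estimates were positive and 2 negative, and none passed. Ndufa2, a subunit with a thioredoxin-like fold, had 54.1, 48.2 and 49.2 CPM in aged mice, against 51.4, 45.3 and 42.6 CPM in young mice. The groups overlapped, since young replicate 1 exceeded aged replicates 2 and 3 (log2 fold change 0.12, SE 0.08, adjusted p = 0.507). Ndufs4, whose loss in mice causes a Leigh-like brain disease, had 53.1, 53 and 52.7 CPM in aged mice, against 54.9, 52.2 and 50.3 CPM in young mice. The aged values lay within the young range (log2 fold change 0.01, SE 0.06, adjusted p = 0.951). Ndufs6, a zinc-binding subunit, Ndufv3 and Ndufa12 had log2 fold changes of 0.09, -0.01 and -0.01.

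The 4 accessory genes of the Q module had estimates from -0.07 to 0.06. Ndufa9, which binds a nicotinamide nucleotide beside the Q module, had 85.1, 82.2 and 81 CPM in aged mice, against 87.3, 82.5 and 91.9 CPM in young mice. Aged replicate 1 overlapped the young values (log2 fold change -0.07, SE 0.06, adjusted p = 0.596). Ndufa5, Ndufa6, a subunit of the LYR family that binds the acyl carrier protein, and Ndufa7 had log2 fold changes of 0.06, 0.04 and 0.02.

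In the proximal membrane arm, which joins the Q module, 3 of 9 genes had all aged values above all young values. Among all genes 14.5% had such a separation upward and 12.7% downward, and among the 38 genes 3 were separated upward (7.89%) and 2 downward (5.26%), lower shares in both directions. The 3 genes were Ndufc1, a small subunit of the membrane arm, Ndufa8, which sits on its intermembrane-space face, and Ndufa11, a membrane subunit related to the TIM17 family. Ndufc1 had 28.9, 28.6 and 28.5 CPM in aged mice, against 27.6, 26.4 and 27.1 CPM in young mice. The gap was small, and the log2 fold change of 0.08 (SE 0.08) did not pass (adjusted p = 0.656).

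Ndufa8 had 77.6, 75.4 and 75.1 CPM in aged mice, against 74.7, 71.3 and 74.8 CPM in young mice (log2 fold change 0.05, SE 0.05, adjusted p = 0.752). Ndufa11 had 71.2, 72.3 and 71.4 CPM in aged mice, against 70.1, 68.2 and 70.3 CPM in young mice (log2 fold change 0.04, SE 0.05, adjusted p = 0.775). In both genes the closest aged and young values almost met. Ndufa1, a small membrane subunit, had 37.4, 32.9 and 32.9 CPM in aged mice, against 39.4, 34.7 and 38.5 CPM in young mice, and aged replicate 1 overlapped the young values (log2 fold change -0.13, SE 0.08, adjusted p = 0.508). Ndufa10, of the nucleoside kinase family, Ndufa13, also known as GRIM-19, Ndufa3, Ndufc2 and Ndufs5 had estimates from -0.03 to 0.07.

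The distal membrane arm, the far end of the proton-pumping part, held the remaining separated gene and the most negative estimate. Ndufb2 had 13.1, 12.6 and 12.5 CPM in aged mice, against 15.1, 14.2 and 14.5 CPM in young mice. All aged mice were below all young mice, with means of 12.75 ± 0.341 and 14.6 ± 0.44 CPM (SD, n = 3 each). The difference of -0.20 log2 units (SE 0.10) did not pass (limma adjusted p = 0.407). Its SE depended on the variance model. Without a variance trend in limma the SE was 0.06, and the difference again did not pass (adjusted p = 0.374). Ndufb1, a small single-pass subunit, had 32.8, 27.7 and 27.1 CPM in aged mice, against 36.1, 29.4 and 36.5 CPM in young mice. The groups overlapped, because aged replicate 1 was above young replicate 2.

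For Ndufb1 the log2 fold change was -0.22 (SE 0.10, unadjusted p = 0.042, adjusted p = 0.314). Without aged replicate 3 the estimate became 0.15, and -0.17 when the term for the removed factor was dropped as well. Of its exon bases 12.7% overlap Cpsf2 on the opposite strand.

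The remaining 9 distal genes had estimates between -0.07 and 0.15. Ndufb4 had 11.1, 7.87 and 8.52 CPM in aged mice, against 8.26, 7.57 and 8.76 CPM in young mice, and only aged replicate 1 was high (log2 fold change 0.15, SE 0.15, adjusted p = 0.716). In its transcripts 18.3% of the 50-base words occur in other genes, most in Ndufb4c. Ndufb9, an LYR protein, had 18.2, 21.6 and 21.2 CPM in aged mice, against 21.3, 23.2 and 19.7 CPM in young mice. Here aged replicate 1 was the low library (log2 fold change -0.07, SE 0.10, adjusted p = 0.786). Ndufb7, Ndufb5, Ndufb6, Ndufb3, Ndufb10, Ndufb11 and Ndufb8 had log2 fold changes of 0.09, 0.07, 0.03, 0.02, 0.02, 0.01 and 0.0006.

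**Figure D3:**
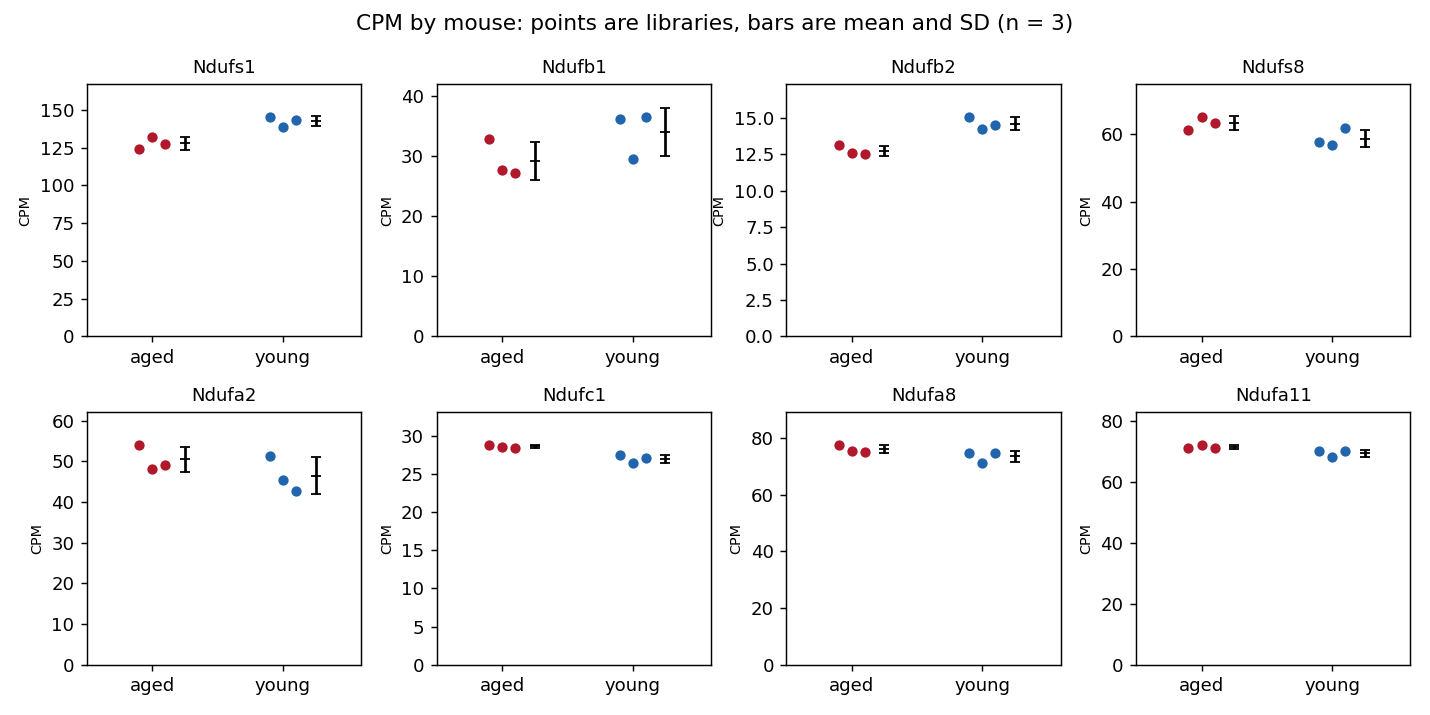
CPM per mouse (points) with mean and SD (bars, n = 3) for the 5 genes of smallest p and the further 3 whose groups do not overlap, aged left of young, each axis starting at 0. Ndufs1 and Ndufb2 lie lower in all aged mice, and the gaps of Ndufc1, Ndufa8 and Ndufa11 are small against their level.

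Outside complex I by current placement, Ndufa4 had 173, 167 and 171 CPM in aged mice, against 165, 175 and 178 CPM in young mice, and the groups overlapped (log2 fold change -0.02, SE 0.05, adjusted p = 0.878). Its hypoxia-inducible relative Ndufa4l2 had the lowest level of the 38 genes, with 2.2, 2.69 and 2.94 CPM in aged mice, against 1.17, 2.54 and 2.85 CPM in young mice. Young replicate 1 alone was low. The log2 fold change was 0.34 (SE 0.31, adjusted p = 0.666), without young replicate 1 it was -0.07. Without aged replicate 3 it was -0.32, and 0.25 when the term for the removed factor was dropped as well.

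Single libraries stood out in many of the genes. Aged replicate 1 was the highest of the 6 libraries for 16 of the 38 genes (42.1%), against 19.5% of all genes. Young replicate 2 was the lowest for 16 (42.1%), against 22.2% of all genes. The summed level of the 38 genes was nonetheless alike, with 2679, 2627 and 2622 CPM in aged mice, against 2656, 2585 and 2659 CPM in young mice, and the groups overlapped. Aged replicate 1 was also the aged library whose choroid plexus markers lay nearest the young ones. Within the aged group, the deviation of replicate 1 went down with exon length across the 37 genes other than Ndufa4l2 (Spearman's rho = -0.44, Pearson's r = -0.33 with log2 length). Deviations within a group cancel out, and those of aged replicates 2 and 3 went up with length (rho = 0.39 and 0.31). For replicate 1, rho was -0.04 in all genes of the CPM range of these 37 (n = 9693 genes). The 37 genes share each library, so this is a description only.

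**Figure D4:**
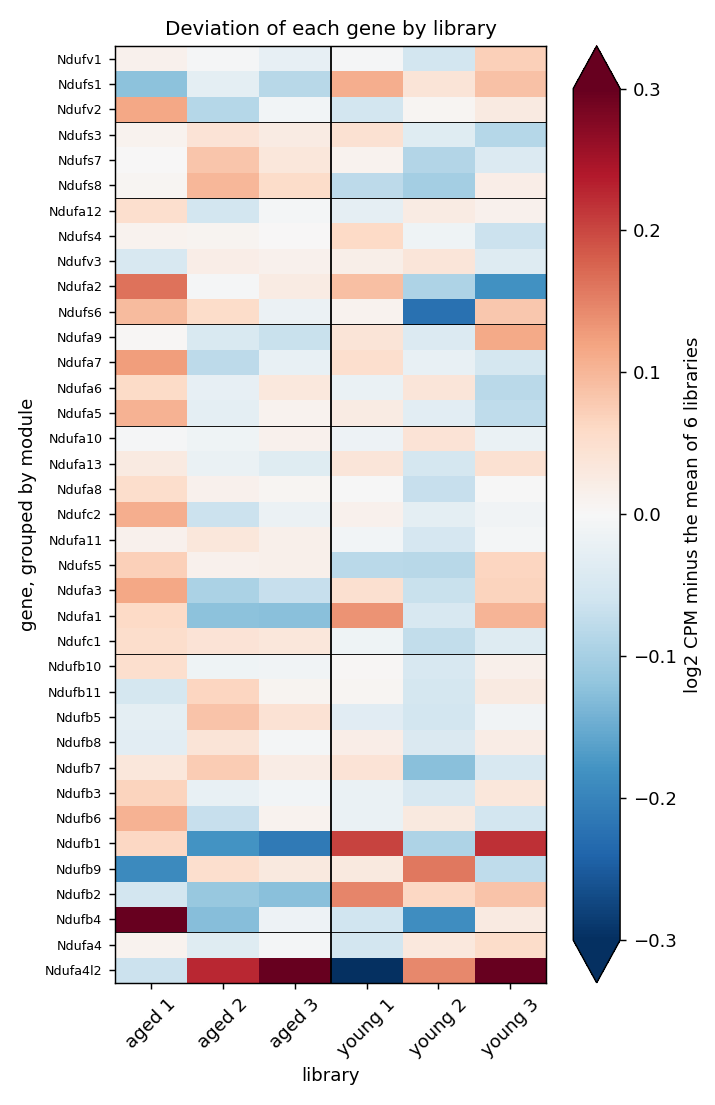
Log2 CPM of each of 37 genes minus its mean over the 6 libraries (color, cut at 0.3 in either direction), with aged libraries left of young ones and modules separated by lines. Red is high and blue is low, and the first aged library holds many of the red cells while the second young library holds many of the blue ones.

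Levels of different genes were compared per kilobase of annotated exon. Ndufa4 was highest with 124 CPM per kb, followed by Ndufc2 with 96.3 and Ndufa8 with 86.9 CPM per kb. Of core subunits, Ndufv1 had 57.9 CPM per kb, Ndufs8 47.2, Ndufv2 47.0, Ndufs7 43.1, Ndufs3 42.5 and Ndufs1 16.7 CPM per kb. Ndufa4l2 with 2.19, Ndufb2 with 2.43 and Ndufb4 with 4.53 CPM per kb were lowest. The scale depends on the annotated exon length, which is 8086 bases for Ndufs1 and 5628 for Ndufb2. In 8 of the 38 genes more than 15% of the 50-base words are shared with another gene, and 15 genes share none. The highest shares were 31.6% in Ndufb6 (Smim27) and 28.5% in Ndufa13 (Tssk6). The exons of Ndufb6 and Ndufa13 overlap these same genes on the opposite strand, and those of Ndufb9 overlap Gm49356, which shares its words. Words shared in this way can be the same genomic bases. Their share therefore does not show how far keeping only uniquely mapped reads lowered these counts.

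Promoter sequences show what some of these genes have in common that their names do not give. RefSeq promoters (GRCm38.p6, 250 bases before to 50 after the start) were found for 33 of the 38 genes, in 35 entries, and Ndufa2, Ndufa4l2, Ndufb9 and Ndufs1 are among those without one. Motifs of regulators of respiratory genes, and the TATA box, were searched as exact letters on both strands. The YY1 motif AAGATGGCG was in 14.3% of the 35 entries and in 1.4% of all 32851 promoters. It lay in the same orientation in all 5 genes, beginning 22 to 35 bases after the start. Its letters include ATG, those of a start codon. Whether they begin the coding sequence of these genes was not examined. The windows are shown because the motif recurs at a like place, in capitals, each 5′ to 3′ on the strand of the gene, and those of Ndufs6 and Ndufs4 end with the entry.
Ndufc1 (chr3:51408915-51408943, minus strand): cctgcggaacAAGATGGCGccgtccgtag
Ndufa9 (chr6:126849097-126849125, minus strand): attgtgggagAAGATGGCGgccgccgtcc
Ndufs7 (chr10:80249463-80249491, plus strand): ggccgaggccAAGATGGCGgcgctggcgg
Ndufs6 (chr13:73328433-73328459, minus strand): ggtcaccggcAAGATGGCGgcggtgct
Ndufs4 (chr13:114388045-114388069, minus strand): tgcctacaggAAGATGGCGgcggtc

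The NRF1 core GCATGCGC, the letters of a factor that drives many respiratory genes, was in 8.57% of the 35 entries and 2.71% of all promoters. Its 3 genes are shown with the motif in capitals because the motif begins before the start in each, at differing places.
Ndufa8 (chr2:36049329-36049356, minus strand): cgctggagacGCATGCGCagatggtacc
Ndufa6 (chr15:82354357-82354384, minus strand): ccgcggtagaGCATGCGCattgcagagc
Ndufa11 (chr17:56717694-56717721, plus strand): tgcactgcgcGCATGCGCgcacgccttg
In Ndufa11 a second match, on the other strand, overlaps the one shown. The ETS motif CCGGAAG was in 11.4% of the entries (Ndufs3, Ndufb6, Ndufb7 and Ndufs8) and 8.86% of all promoters, and TATAAA was in 14.3% and 13.6%. None of these motifs overlaps another in the windows shown. A match is a description of letters and says nothing of binding in these mice.

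Genes that build or accompany complex I were compared in the same fit, as lists and without a test of the list. Of 18 measured assembly factors none passed, and the median log2 fold change was -0.01. At an unadjusted p under 0.05, 2 were higher and 2 lower (11.1% each, against 8% and 6.87% of all genes). Foxred1, an assembly factor, had 31.6, 30.6 and 31.0 CPM in aged mice, against 37.3, 36.4 and 33.2 CPM in young mice, and Ndufaf5, which modifies Ndufs7, had 24.8, 23.5 and 23.8 CPM in aged mice, against 27.6, 27.1 and 27 CPM in young mice. In both genes all aged mice were below all young mice, with log2 fold changes of -0.19 (adjusted p = 0.222) and -0.18 (adjusted p = 0.291). The 2 higher ones, named after their values were seen, were Ndufaf8 with 10.9, 11.98 and 11.3 CPM in aged mice, against 9.84, 8.81 and 9.61 CPM in young mice, and Ndufaf2, a relative of Ndufa12, with 14.96, 13.97 and 14.3 CPM in aged mice, against 11.6, 11.8 and 13.0 CPM in young mice. All aged mice were above all young mice in both, with log2 fold changes of 0.28 (adjusted p = 0.294) and 0.25 (adjusted p = 0.296). Of the 18 genes 3 were separated upward (16.7%, against 14.5% of all genes) and 2 downward (11.1%, against 12.7%). The acyl carrier protein gene Ndufab1 had a log2 fold change of -0.01 (adjusted p = 0.954).

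Of the complex I subunits encoded by mitochondrial DNA 6 were measured, and none passed (median log2 fold change 0.07). At an unadjusted p under 0.05, 2 were higher (33.3%, against 8% of all genes) and 0 lower (against 6.87%). Among them mt-Nd3 was barely detected, with a mean of 1.36 CPM, and had the only negative estimate (-0.33, SE 0.36). The membrane subunit mt-Nd1 had 5392, 5121 and 5205 CPM in aged mice, against 4792, 4696 and 4718 CPM in young mice. All aged mice were higher, with a log2 fold change of 0.15 (SE 0.04, adjusted p = 0.0612). The subunit mt-Nd6, encoded on the other strand of mitochondrial DNA, had 208, 201 and 199.9 CPM in aged mice, against 175, 172 and 198 CPM in young mice (log2 fold change 0.16, SE 0.05, adjusted p = 0.152), again with no overlap. Poly(A) enrichment bears on the levels of mitochondrial transcripts, and its part in these values was not tested.

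Of 39 nuclear subunits of complexes II to V 1 was higher and none lower, with a median log2 fold change of 0.01. At an unadjusted p under 0.05, 8 were higher (20.5%, against 8% of all genes) and 1 lower (2.56%, against 6.87%). Separated upward were 10 (25.6%, against 14.5% of all genes) and downward 4 (10.3%, against 12.7%). The called gene was Cox6a1 of cytochrome c oxidase, with 237, 236.5 and 235.5 CPM in aged mice, against 213, 205 and 207 CPM in young mice. It rose in aged mice by a log2 fold change of 0.18 (SE 0.04, limma adjusted p = 0.0389), and it no longer passed when any single library was left out with the term kept (adjusted p from 0.0788 to 0.233). Of 14 regulators of mitochondrial biogenesis none passed, with 1 higher and 1 lower at an unadjusted p under 0.05 (7.14% each, against 8% and 6.87% of all genes). These were Nfe2l2, a regulator of antioxidant genes, with a log2 fold change of 0.29 (SE 0.11, adjusted p = 0.232), and Esrra, a nuclear receptor of respiratory genes, with -0.13 (SE 0.06, adjusted p = 0.291).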

How the data were processed

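RNA-seq of 6 mouse hippocampi was analysed (3 aged, 3 young), grouped by the sample labels. The authors deposited log2 CPM per library for 16703 genes, with their own mean, test statistic, p-values and fold changes, which were not used. Per the submitters' processing notes, the tools were STAR 2.7.8a, Trim Galore 0.6.6, R 4.05, edgeR 3.32.1, with build mm39, and the extended methods also name Trimmomatic, uniquely mapped reads and removal of unwanted variation (RUV). Undone from the log scale, the deposited values were whole counts to within 5.88e-09, of which 1 direction across libraries was constant (1714 genes above 130 CPM). They are adjusted counts, so depth is unknown and no counting interval was computed.

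All genes were fitted on the deposited log2 CPM in limma 3.58.1 under R 4.3.3, with a variance trend, a term for age and a term for the removed direction (residual degrees of freedom 3, prior 12.3) and Benjamini-Hochberg adjustment. Calls used an FDR of 0.05. Because the factor came from the same libraries, p-values are somewhat too small. An exact permutation test of 3 against 3 cannot go below p = 0.1, so none was run. The steps were tested on simulated data. The members and lists were chosen with earlier results of these data known. Full statistics are given for the 5 members of smallest p, the core subunits, the lowest member and those whose groups do not overlap, and for other lists the called genes or else 2 of smallest p. A few further members are given as values. All counts cover the 38 members, of which 1 is not reported individually here or drawn in the figures. Alternatives were other scalings, a pseudocount of 1, a minimum of 1 CPM, other variance models, the replicate number as a block, the mean of aged replicates 2 and 3 as 1 sample, and each library left out. Exon lengths and shared 50-base words came from GENCODE M21 (GRCm38) and promoters from RefSeq (GRCm38.p6). The values use mm39, and no gene coordinates of that build are given.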

Additional observations from a re-analysis of the deposited data

How the results depend on the processing

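No member was called, higher or lower, under any of the 21 alternatives. The median log2 fold change of the members ran from 0.0063 to 0.073, and the count with an interval within 1.5-fold from 35 to 38. The count within 1.2-fold ran from 11 (without aged replicate 3) to 31 over single libraries left out with the term kept, and reached 33 over all alternatives. In the fit without aged replicate 3 the removed direction and age were correlated at -0.754. With the term dropped as well the count was 28, Ndufb1 was -0.167 and Ndufa4l2 0.252. Estimates close to 0 changed sign, as for Ndufv1 and Ndufv2. So did the most negative estimate, of Ndufb1, and the most positive, of Ndufa4l2. Ndufv1 was 0.0013 under quantile normalization and 0.0019 with the mean of aged replicates 2 and 3 as 1 sample. Over single libraries left out, Ndufv1 ran from -0.0426 to 0.0628, Ndufv2 from -0.0436 to 0.0895, Ndufb1 from -0.334 to 0.145 and Ndufa4l2 from -0.320 to 0.587. With the term dropped too, Ndufv2 was -0.0389 without aged replicate 1. Without young replicate 1, Ndufv2 was then -0.0082 and Ndufa4l2 -0.055, and without young replicate 3 Ndufv1 was 0.0242. The cause was not tested. Cox6a1 kept its direction and lost its call without a variance trend (adjusted p = 0.365), with the mean of aged replicates 2 and 3 (0.061) and in 7 of the 12 fits with a library left out. Over all genes, calls ran from 0 to 319 higher and 0 to 204 lower, against 200 and 131, with 0 in each direction without a variance trend and 319 and 204 without the term for the removed direction.

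Deviations of same-numbered libraries correlated at 0.14, -0.26 and -0.47 across 9696 genes. Whether replicate numbers pair the samples cannot be told from these values. Deviations cancel out within each age group, and the removed factor may have held a difference shared by replicates. With the replicate block, 0 members were called and the median was 0.0173 on 1 residual degree of freedom, with 226 genes higher and 163 lower.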
